A study of Mus musculus with 22 samples.

Results

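The genes described here encode the protein subunits of the mitochondrial ribosome. They were taken as all gene symbols of the deposited count table that begin with Mrps or Mrpl and end in a number with at most 1 letter from a to c. This rule, which used no measured value, found 77 of the 24454 symbols in the table, 48 beginning with Mrpl and 29 with Mrps. All 77 had counts in every library, the lowest being 43 counts, and all 77 passed the filter on low counts in every comparison.

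The libraries came from the aorta-gonad-mesonephros (AGM) region of C57BL/6 mouse embryos, the site where endothelial cells give rise to haematopoietic stem and progenitor cells (HSPCs) in the endothelial to haematopoietic transition (EHT). Each of the 22 libraries held 25 cells sorted as positive for VE-Cadherin, a surface protein of endothelial cells, and untreated, and the populations were then split by the surface proteins CD44 and Kit. CD44Neg cells, labelled endothelial, gave 10 libraries, with replicates 1 to 3 at embryonic day E11, 4 to 7 at E9.5 and 8 to 10 at E10. CD44LoKitNeg cells, labelled hemogenic endothelial, gave 6 libraries, with replicates 11 to 13 at E11, 14 at E9.5 and 15 and 16 at E10. CD44LoKitPos cells, labelled Pre-HSPC, gave 3 libraries, with replicates 17 and 18 at E10 and 19 at E9.5. CD44High cells, labelled HSPC, gave 3 libraries, replicates 20 to 22, all at E11. The label dates coincide with the stages, so date and stage cannot be told apart. The labels do not say whether libraries of a group came from separate embryos, so p-values here measure the spread between these libraries.

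Mitochondria keep a small genome whose messenger RNAs code for core subunits of the respiratory chain and of the ATP synthase, and these messages are read only by the ribosome inside the organelle. That ribosome has RNA made from the mitochondrial genome, whereas its proteins are coded in the nucleus, made in the cytosol and imported. The mitochondrial ribosome evolved from a bacterial one, and many of its proteins have a bacterial counterpart while others are found in mitochondria alone. Of the 77 genes, 50 encode proteins of the large subunit, where peptide bonds form, and 26 encode proteins of the small subunit, which reads the message. The Mrps36 protein is a subunit of the 2-oxoglutarate dehydrogenase complex of the citric acid cycle in spite of its symbol, and Mrps30 and Mrps18a encode proteins that sit in the large subunit. Counterparts in bacteria are known for 45 of the proteins, and 31 are specific to mitochondria.

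The libraries held 3912350 to 8657546 counts each. Rn45s, the precursor of ribosomal RNA in the cytosol, made up 1.92% to 19.4% of the counts in CD44Neg, 7.29% to 19.2% in CD44LoKitNeg, 6.82% to 9.26% in CD44LoKitPos and 16.6% to 23.9% in CD44High. Endothelial markers summed to 2769 to 5493 normalized CPM (counts brought to 1 common library size by the library total and a TMM scaling factor) in CD44Neg and 3414 to 9379 in CD44LoKitNeg. In CD44LoKitPos they summed to 768 to 1815 CPM and the blood markers to 516 to 1497 CPM. The libraries labelled CD44High stood apart from the others. Cdh5, the gene of the VE-Cadherin protein by which the cells were sorted, had an RNA level of 0 in all 3 of them. The 8 endothelial markers summed to 12.5 to 73.9 CPM. The sort was on surface protein and not on RNA, and the paper also reports endothelial gene expression as absent in CD44High. The 8 blood markers, Ptprc among them, summed to 1589 to 3061 CPM, while the 8 macrophage markers summed to 1522 to 4243 CPM against at most 114 CPM in any other library. The macrophage genes Adgre1, C1qa, C1qb and C1qc were at 0 in all 19 other libraries. All values in CD44High are given with this in mind, and the part of these cells in the results was not tested.

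The start of the gene is shown for 6 members, namely 4 of the genes that fell in CD44LoKitNeg and the 2 with the highest fold changes there. Each line is a window of 300 bases in RefSeq's GRCm38.p6 build, from 250 bases before to 50 bases from the start of transcription, 5′ to 3′ on the strand of the gene, and capitals mark the letters searched for on both strands: CCGGAAG (ETS family), AAGATGGC (YY1), GCATGCGC (the core of the NRF1 motif), CACGTG (E-box), GGGCGG (GC box), CCAAT and TATAAA.
Mrps18b, chr17:35916391-35916690, minus strand: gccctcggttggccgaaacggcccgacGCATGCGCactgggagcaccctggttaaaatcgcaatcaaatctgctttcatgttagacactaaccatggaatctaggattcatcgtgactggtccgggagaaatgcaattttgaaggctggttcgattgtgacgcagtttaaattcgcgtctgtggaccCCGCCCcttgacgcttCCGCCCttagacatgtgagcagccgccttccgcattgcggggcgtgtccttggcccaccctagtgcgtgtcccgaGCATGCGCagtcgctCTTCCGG
Mrps27, chr13:99344536-99344835, plus strand: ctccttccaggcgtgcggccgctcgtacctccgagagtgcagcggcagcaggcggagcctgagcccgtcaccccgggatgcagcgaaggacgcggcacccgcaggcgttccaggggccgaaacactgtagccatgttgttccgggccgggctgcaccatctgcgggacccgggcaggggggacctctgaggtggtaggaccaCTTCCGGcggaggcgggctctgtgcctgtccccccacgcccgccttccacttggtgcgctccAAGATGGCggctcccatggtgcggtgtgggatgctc
Mrpl42, chr10:95501900-95502199, minus strand: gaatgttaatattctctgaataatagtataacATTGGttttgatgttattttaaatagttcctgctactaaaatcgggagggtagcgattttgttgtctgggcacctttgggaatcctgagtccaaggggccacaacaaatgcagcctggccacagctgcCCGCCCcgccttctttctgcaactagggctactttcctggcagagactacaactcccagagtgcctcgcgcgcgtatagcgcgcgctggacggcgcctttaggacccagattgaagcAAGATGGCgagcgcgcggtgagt
Mrpl2, chr17:46645971-46646270, plus strand: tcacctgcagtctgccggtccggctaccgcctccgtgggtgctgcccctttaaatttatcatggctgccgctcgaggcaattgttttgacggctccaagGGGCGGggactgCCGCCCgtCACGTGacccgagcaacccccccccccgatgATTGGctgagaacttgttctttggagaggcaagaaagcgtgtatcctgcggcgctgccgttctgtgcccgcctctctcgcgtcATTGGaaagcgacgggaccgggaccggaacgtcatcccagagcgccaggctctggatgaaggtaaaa
Mrps6, chr16:92058086-92058385, plus strand: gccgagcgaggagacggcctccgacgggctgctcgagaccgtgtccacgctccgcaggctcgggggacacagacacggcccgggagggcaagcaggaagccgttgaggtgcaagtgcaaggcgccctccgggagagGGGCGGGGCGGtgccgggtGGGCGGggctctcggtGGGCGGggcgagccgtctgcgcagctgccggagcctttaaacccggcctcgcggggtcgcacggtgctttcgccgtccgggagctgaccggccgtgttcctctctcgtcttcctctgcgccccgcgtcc
Mrpl44, chr1:79775768-79776067, plus strand: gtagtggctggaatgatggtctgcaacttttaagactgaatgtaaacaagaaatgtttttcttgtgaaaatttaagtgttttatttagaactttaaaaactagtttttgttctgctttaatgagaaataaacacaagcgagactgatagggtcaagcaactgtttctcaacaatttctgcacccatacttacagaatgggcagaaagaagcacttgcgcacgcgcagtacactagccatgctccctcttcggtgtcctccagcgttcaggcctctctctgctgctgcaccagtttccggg

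The Mrps18b window held the NRF1 core letters at bases 28 and 279, the ETS letters at base 294 and 2 GC boxes, counted from the first base of the window. The Mrps27 window held the ETS letters at base 203 and the YY1 letters at base 265, and the Mrpl42 window the YY1 letters at base 278 beside 1 GC box and 1 CCAAT. The Mrpl2 window held the E-box at base 120, 2 GC boxes and 2 CCAAT. The Mrps6 window held GC box letters at 4 places and no other of the motifs. The Mrpl44 window held none of the letters searched for, though it holds a run that differs from the NRF1 core letters at 1 base. Only the exact letters were searched for, so other forms of a motif were not counted. A match here is a description of the letters and not a binding site.

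Promoter windows were in the RefSeq table for 68 of the 77 genes, as 74 windows. The ETS letters were in 33.8% of these windows, against 18.4% of the 10908 windows of the genes tested between CD44LoKitNeg and CD44Neg and 8.86% of all windows in the table. The YY1 letters were in 16.2% of the members' windows against 4.69% and 2.75%, and the NRF1 core letters in 10.8% against 5.58% and 2.71%. The GC box was in 52.7% against 64.4% of the windows of tested genes, CCAAT in 40.5% against 37.9%, the E-box in 9.46% against 10.1% and TATAAA in 6.76% against 6.67%. These shares are descriptions, and no test was made of them. Of the 9 genes with a window that fell in CD44LoKitNeg, 2 had the ETS letters, 2 the YY1 letters and 1 the NRF1 core. The E-box was in 1 of the 9, the GC box in 5, CCAAT in 3 and TATAAA in 1. Every match of the 9 to the ETS, YY1, NRF1 or E-box letters lies in the fallen genes shown above. The shown genes thus do not stand for the other fallen genes.

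The 77 genes lie on 17 chromosomes, all positions being in RefSeq's GRCm38.p6. By the gene bounds of the GENCODE annotation, 17 of them start within 500 bases of a protein-coding gene that runs away on the other strand. Examples are Ppp1r10, 45 bases from Mrps18b, and Apba3, 26 bases from Mrpl54. Pairs whose bounds overlap at the starts were not counted. In RefSeq, the members Mrpl46 (minus strand, ending at base 78783089) and Mrps11 (plus strand, starting at 78783131) also lie head to head on chromosome 7, outside the 17. Exons of 17 members overlap those of another protein-coding gene. Whether the counting used strand or how it treated shared reads is not given in the sources used here, so the counts of these members are uncertain. Mrpl18 overlaps Tcp1, a subunit of the cytosolic chaperonin, which had a median of 654 CPM in CD44Neg. Mrps6 shares exons on the same strand with Slc5a3, an inositol transporter. Mrps36, Mrpl23, Mrpl27 and Mrpl48 have named pseudogenes that could share their reads.

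Across the members, the level per transcript length, in CPM per kilobase of the principal GENCODE transcript and averaged over the 22 libraries, ran from 9.795 for Mrps5 to 292 for Mrpl42. Mrpl20 at 219 and Mrps18c at 206 CPM per kilobase followed Mrpl42, with transcripts of 764, 638 and, for Mrpl42, 666 bases. These genes were chosen after their values were seen. Next above Mrps5 came Mrpl48 at 10.4 and Mrps25 at 11.1 CPM per kilobase. The transcripts taken for Mrps5, Mrpl48 and Mrps25 have 4481, 4285 and 6073 bases, so this order rests in part on the annotated length. Within CD44Neg, Mrpl42 stood at 329 ± 138 (SD, n = 10) and Mrpl20 at 206 ± 34.4 CPM per kilobase. Over the 10 libraries their ranges overlapped, at 175 to 609.5 and 156 to 256.5 CPM per kilobase, but at E9.5 all 4 libraries had Mrpl42 (347 or more) above the highest value of Mrpl20. The order of the means was not the same in every population. In CD44LoKitNeg, Mrpl20 (179 ± 31.5) and Mrps18c (160 ± 80.4) had higher means than Mrpl42 (149 ± 57.9 CPM per kilobase, SD, n = 6). Mrpl42 was higher per kilobase than both at E9.5, however, and higher than Mrps18c in every E11 library. In CD44High the mean of Mrps18c (406 ± 256) stood above that of Mrpl42 (373 ± 47.8 CPM per kilobase, SD, n = 3). That order rested on replicate 20, where Mrps18c had 447 CPM against 178 and 152 CPM in replicates 21 and 22. In replicates 21 and 22 Mrpl42, with 212 and 263 CPM, was higher per kilobase. Mrps5 was lowest in CD44LoKitPos and CD44High, Mrps25 in CD44Neg and Mrpl48 in CD44LoKitNeg.

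Taken as a sum over all 77 genes, CD44LoKitNeg had the lowest level of the 4 populations. The sum was 6885 ± 1255 CPM in CD44Neg (SD, n = 10), 4828 ± 729 in CD44LoKitNeg (n = 6), 7927 ± 698 in CD44LoKitPos (n = 3) and 8611 ± 811 in CD44High (n = 3). In CD44Neg the sum ran from 5488 over a median of 6614 to 9097 CPM, and in CD44LoKitNeg from 4052 to 5925 CPM with a median of 4588 CPM. The 3 CD44LoKitPos libraries gave 7122, 8300 and 8360 CPM and the 3 CD44High libraries 7771, 8673 and 9388 CPM. All 6 CD44LoKitNeg libraries lay below all CD44LoKitPos and CD44High libraries, and only the highest of them, replicate 14 at E9.5, reached into the range of CD44Neg. Because these are bulk libraries, fewer cells expressing a gene and less RNA per cell cannot be told apart.

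Stage moved with the sum inside both endothelial populations. In CD44Neg the 4 libraries of E9.5 lay between 7234 and 9097 CPM, the 3 of E10 between 5488 and 6944 and the 3 of E11 between 5666 and 6284. In CD44LoKitNeg the E9.5 library had 5925 CPM, the E10 libraries 4746 and 5486, and the E11 libraries 4052, 4326 and 4431. At each stage every CD44LoKitNeg library lay below every CD44Neg library, although at E10 the higher CD44LoKitNeg value of 5486 CPM was close to the lowest CD44Neg value of 5488 CPM. As a share of all counts, the family took 0.554% to 0.954% in CD44Neg, 0.421% to 0.591% in CD44LoKitNeg, 0.767% to 0.909% in CD44LoKitPos and 0.656% to 0.804% in CD44High.

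**Figure D1:**
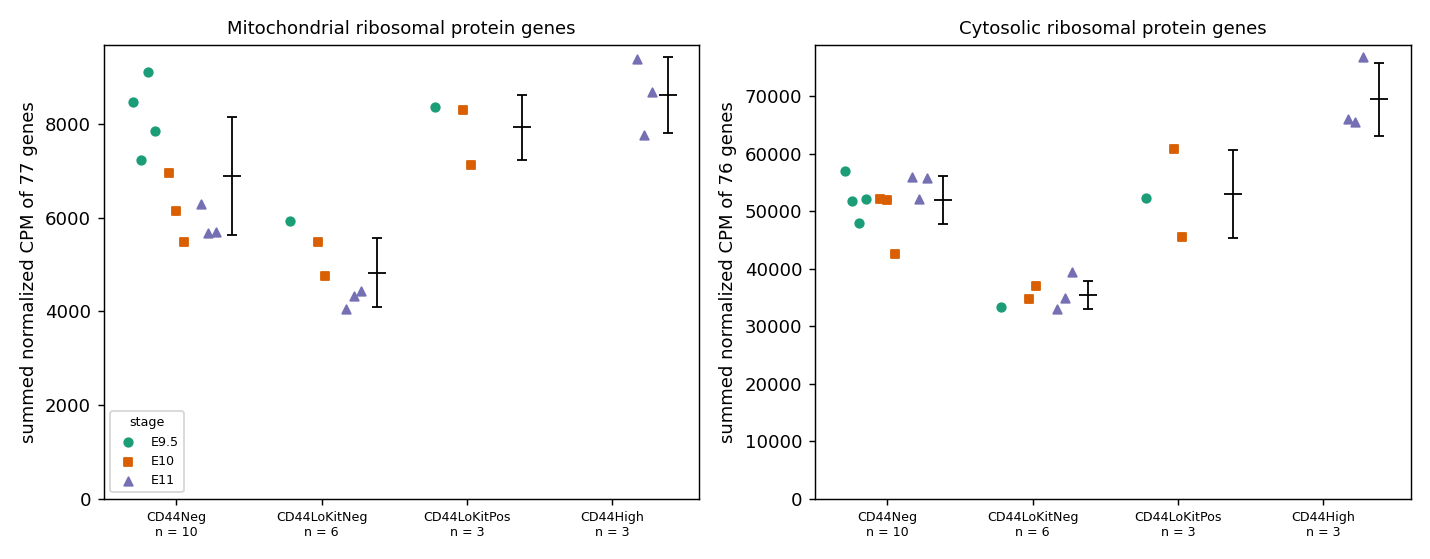
Summed normalized CPM in each of the 22 libraries, by population, for the 77 mitochondrial ribosomal protein genes (left) and the 76 cytosolic ribosomal protein genes (right). Points are libraries, coloured by stage, and black bars give the mean and SD of each population. CD44LoKitNeg has the lowest mean in both panels, and inside CD44Neg the libraries of E9.5 lie above those of E10 and E11 on the left, whereas on the right those of E9.5 overlap with both later stages.

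The proportion of the 2 subunits was compared next. The sum of the small subunit genes divided by that of the large subunit genes was 0.399 to 0.451 in CD44Neg, 0.418 to 0.467 in CD44LoKitNeg, 0.413 to 0.480 in CD44LoKitPos and 0.402 to 0.443 in CD44High. These ranges overlapped between all 4 populations.

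**Figure D2:**
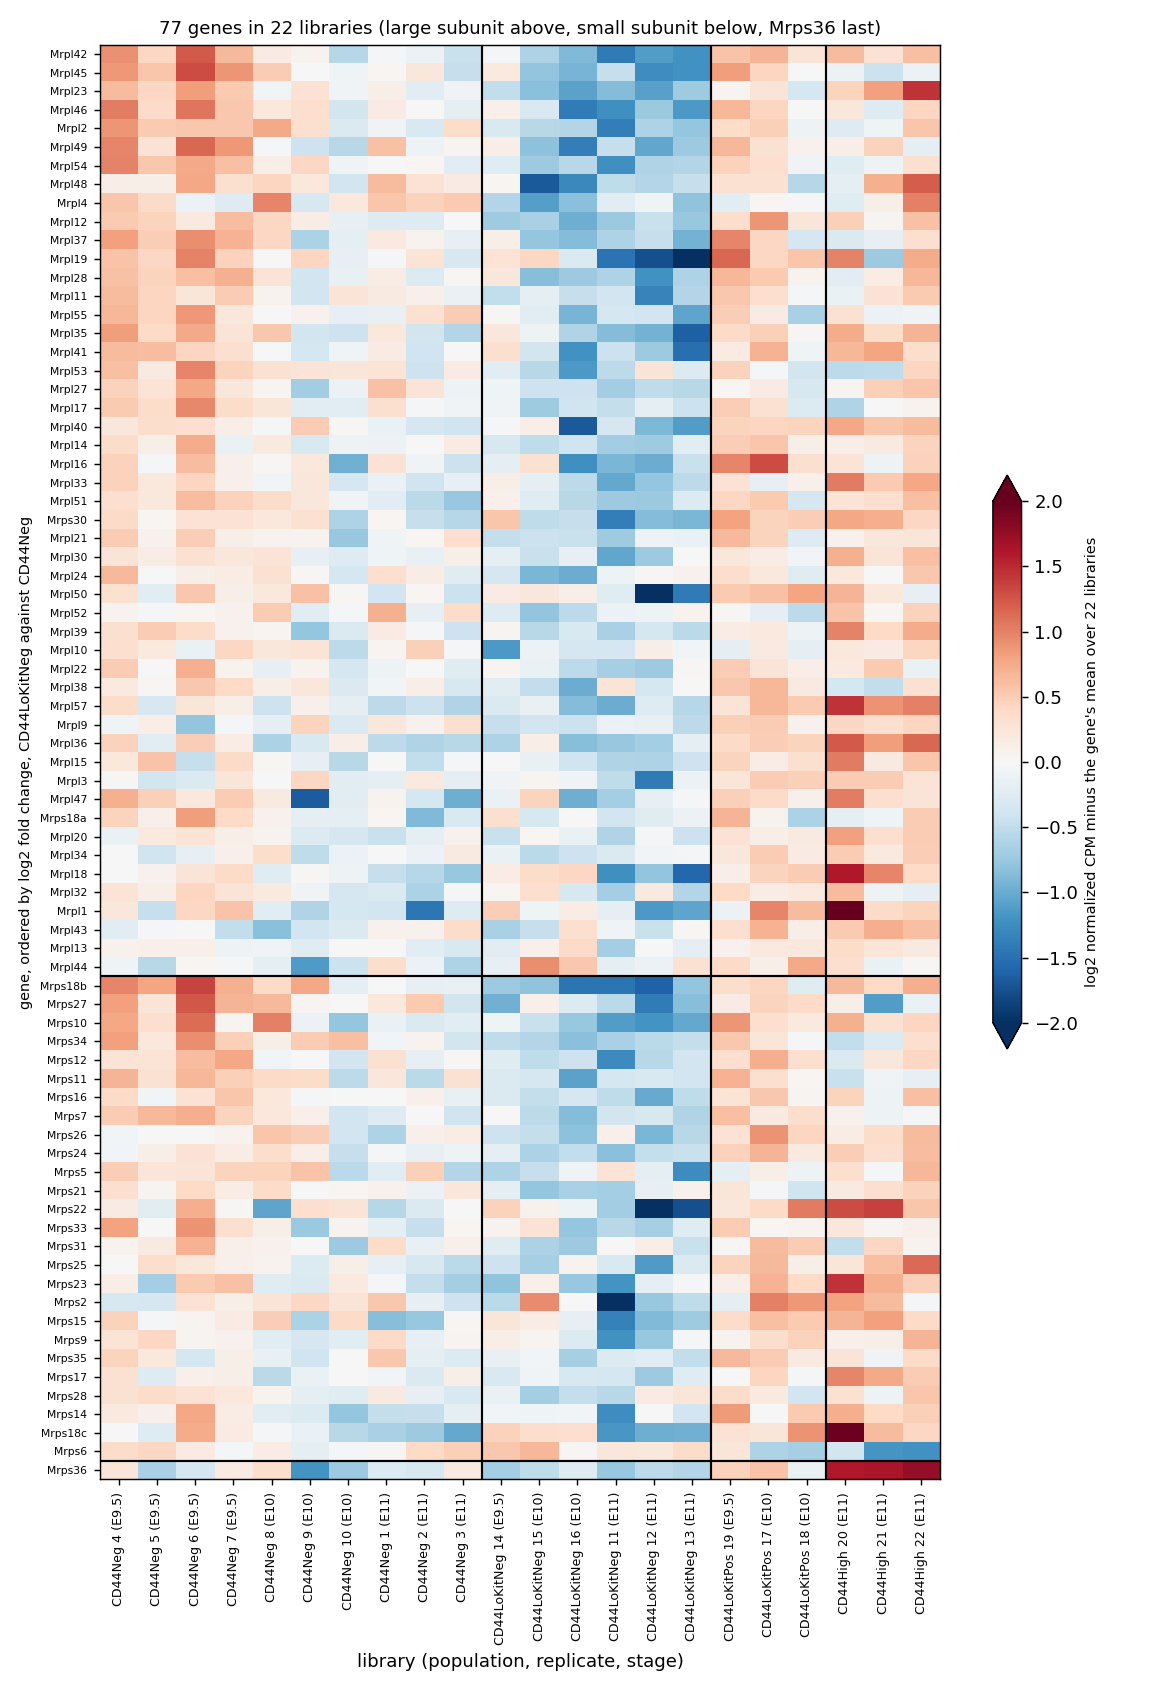
Level of each of the 77 genes in each library, as log2 normalized CPM minus the gene's own mean over the 22 libraries, with populations separated by vertical lines and libraries ordered by stage within them. Genes of the large subunit stand above those of the small subunit, with Mrps36 last, ordered by their fold change between CD44LoKitNeg and CD44Neg. The CD44LoKitNeg columns are blue for most genes, with Mrpl44 and Mrps6 as the exceptions at the bottom of each block, and the bottom line shows Mrps36 high in the 3 CD44High libraries alone.

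The comparison of CD44LoKitNeg with CD44Neg sets the 2 endothelial populations of the AGM against each other. Of the 77 genes, 12 were lower and none was higher in CD44LoKitNeg (edgeR quasi-likelihood test, Benjamini-Hochberg adjusted p under 0.01), where 5.23% of the 11022 genes tested were lower and 4.94% higher. At an unadjusted p under 0.05, 38 members were lower and 1 was higher, where 32.6% of genes passed in either direction. For 7 members all 6 CD44LoKitNeg libraries lay below all 10 CD44Neg libraries and for none above, against 3.08% and 2.5% of genes. The log2 fold change was below 0 for 73 of the 77, against 49.8% of all tested genes, and its median was -0.49 over the family against 0.005 over all tested genes. The 12 were 9 of the 50 genes of the large subunit and 3 of the 26 of the small subunit, and the medians over all genes of these subunits were -0.49 and -0.43. By origin, 7 of the 31 genes specific to mitochondria and 5 of the 45 with a bacterial counterpart fell.

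Mrps18b showed the largest fall. With Mrps18a and Mrps18c it is 1 of 3 relatives of a single bacterial protein of the small subunit, of which Mrps18c is counted here as the counterpart and the other 2 as specific to mitochondria. Its level ran from 48.6 to 142 CPM with a median of 81.6 CPM in CD44Neg and from 17.8 to 33.1 CPM with a median of 25.6 CPM in CD44LoKitNeg, so the groups did not overlap. The log2 fold change was -1.65 ± 0.28 (SE, edgeR adjusted p = 0.000341). The other 2 relatives did not pass the test, Mrps18a at -0.20 ± 0.22 (edgeR adjusted p = 0.563) and Mrps18c at 0.007 ± 0.29 (edgeR adjusted p = 0.99).

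Mrpl12, a protein of the stalk of the large subunit to which translation factors bind, ran from 114 to 210 CPM with a median of 154 CPM in CD44Neg and from 69.6 to 100 CPM with a median of 82.7 CPM in CD44LoKitNeg. The groups did not overlap, and the log2 fold change was -0.90 ± 0.17 (edgeR adjusted p = 0.00106). Mrpl11, at the base of the same stalk, fell by 0.75 on the log2 scale (SE 0.20, edgeR adjusted p = 0.0098).

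Mrpl23 encodes a protein beside the exit of the tunnel through which the new chain leaves. It ran from 37.1 to 76.7 CPM with a median of 49.8 CPM in CD44Neg and from 20.04 to 30.4 CPM with a median of 23.7 CPM in CD44LoKitNeg, again without overlap, with a log2 fold change of -1.11 ± 0.22 (edgeR adjusted p = 0.0014). Mrpl45, which anchors the ribosome to the inner membrane near that exit, fell by 1.12 (SE 0.28, edgeR adjusted p = 0.0072), and Mrpl4, part of the tunnel wall, fell by 0.91 on the log2 scale (SE 0.22, edgeR adjusted p = 0.00696). Mrpl2, a core protein close to the site of peptide bond formation, fell by 1.04 (SE 0.22, edgeR adjusted p = 0.00191).

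The other called members are all specific to mitochondria. In the small subunit, Mrps34 had a log2 fold change of -0.97 ± 0.21 (edgeR adjusted p = 0.00233) and Mrps27, a protein with repeats of the RNA-binding pentatricopeptide type, -1.05 ± 0.26 (edgeR adjusted p = 0.0072). In the large subunit, Mrpl54 had -0.9985 ± 0.21, Mrpl42 -1.13 ± 0.28 and Mrpl46 -1.07 ± 0.27, with edgeR adjusted p-values of 0.00248, 0.00629 and 0.00889. Mrps12, which lies at the decoding centre, had -0.73 ± 0.21 and did not pass (edgeR adjusted p = 0.0164).

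Mrpl44 and Mrps6 stood apart. Mrpl44, a large subunit protein with a fold of the ribonuclease III family, ran from 31.1 to 87.6 CPM with a median of 62.1 CPM in CD44Neg and from 60.5 to 132 CPM with a median of 73.9 CPM in CD44LoKitNeg, with overlap. Its log2 fold change was 0.52 ± 0.23 (edgeR adjusted p = 0.116), the highest of the 77. Mrps6, a small subunit protein, ran from 73.3 to 116 CPM with a median of 92.4 CPM and from 84.4 to 132 CPM with a median of 102 CPM, with a log2 fold change of 0.17 ± 0.16 (edgeR adjusted p = 0.492).

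Stage differs between the groups of this comparison, as 3 of 6 CD44LoKitNeg libraries but 3 of 10 CD44Neg libraries are from E11. Stage as a term in the fit gave 14 members lower, where 6.44% of genes were, and a median of -0.45. In that fit 2 of the 12 no longer passed, Mrps27 (-0.93, edgeR adjusted p = 0.012) and Mrpl11 (-0.65, edgeR adjusted p = 0.0159). Within E11, with 3 libraries a side, no member passed, where 1.52% of genes were lower. The median there was -0.40, 18 members had an unadjusted p under 0.05 where 25.3% of genes did, and 37 of the 77 lay lower and none higher in all CD44LoKitNeg libraries than in all CD44Neg libraries, against 16.9% and 13.3% of genes. Within E10, with 2 against 3 libraries, no member passed either (median -0.27), 9 had an unadjusted p under 0.05 where 19% of genes did, and 30 members lay lower and 6 higher without overlap, against 18.4% and 17.4% of genes. For single called genes, within E11 the log2 fold change was -1.10 for Mrps18b, -0.42 for Mrpl12 and -0.39 for Mrps34, and within E10 it was -0.59 for Mrpl42, -0.27 for Mrps27 and -0.27 for Mrpl11, each smaller by over 1.5 times than in all stages together. Mrpl44 had 0.15 within E11 and 1.35 within E10. At E9.5 the single CD44LoKitNeg library lay below all 4 CD44Neg libraries for 56 members and above them for 2, against 22.6% and 26.9% of genes.

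The count of 12 depended on the setting and on single libraries. It was 8 with the size factors of DESeq2, 8 without a filter on low counts and 8 without Rn45s, where 4.52%, 2.81% and 4.53% of genes were lower, and Mrpl4, Mrps27, Mrpl46 and Mrpl11 missed the threshold in all 3 of these fits. It was 19 by the Wald test of DESeq2 and 27 at an adjusted p under 0.05, where 7.7% and 10.4% of genes were lower. Leaving out 1 library gave 6 to 13, with 6 or 7 called when CD44Neg 4, 5, 6, 7 or 8 or CD44LoKitNeg 11, 12, 13, 15 or 16 was the one left out. Mrps18b, Mrpl12, Mrpl23, Mrpl2, Mrps34 and Mrpl54 passed whichever of the 16 libraries was left out, and the other 6 missed the threshold in 9 to 14 of the 16 fits.

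**Figure D3:**
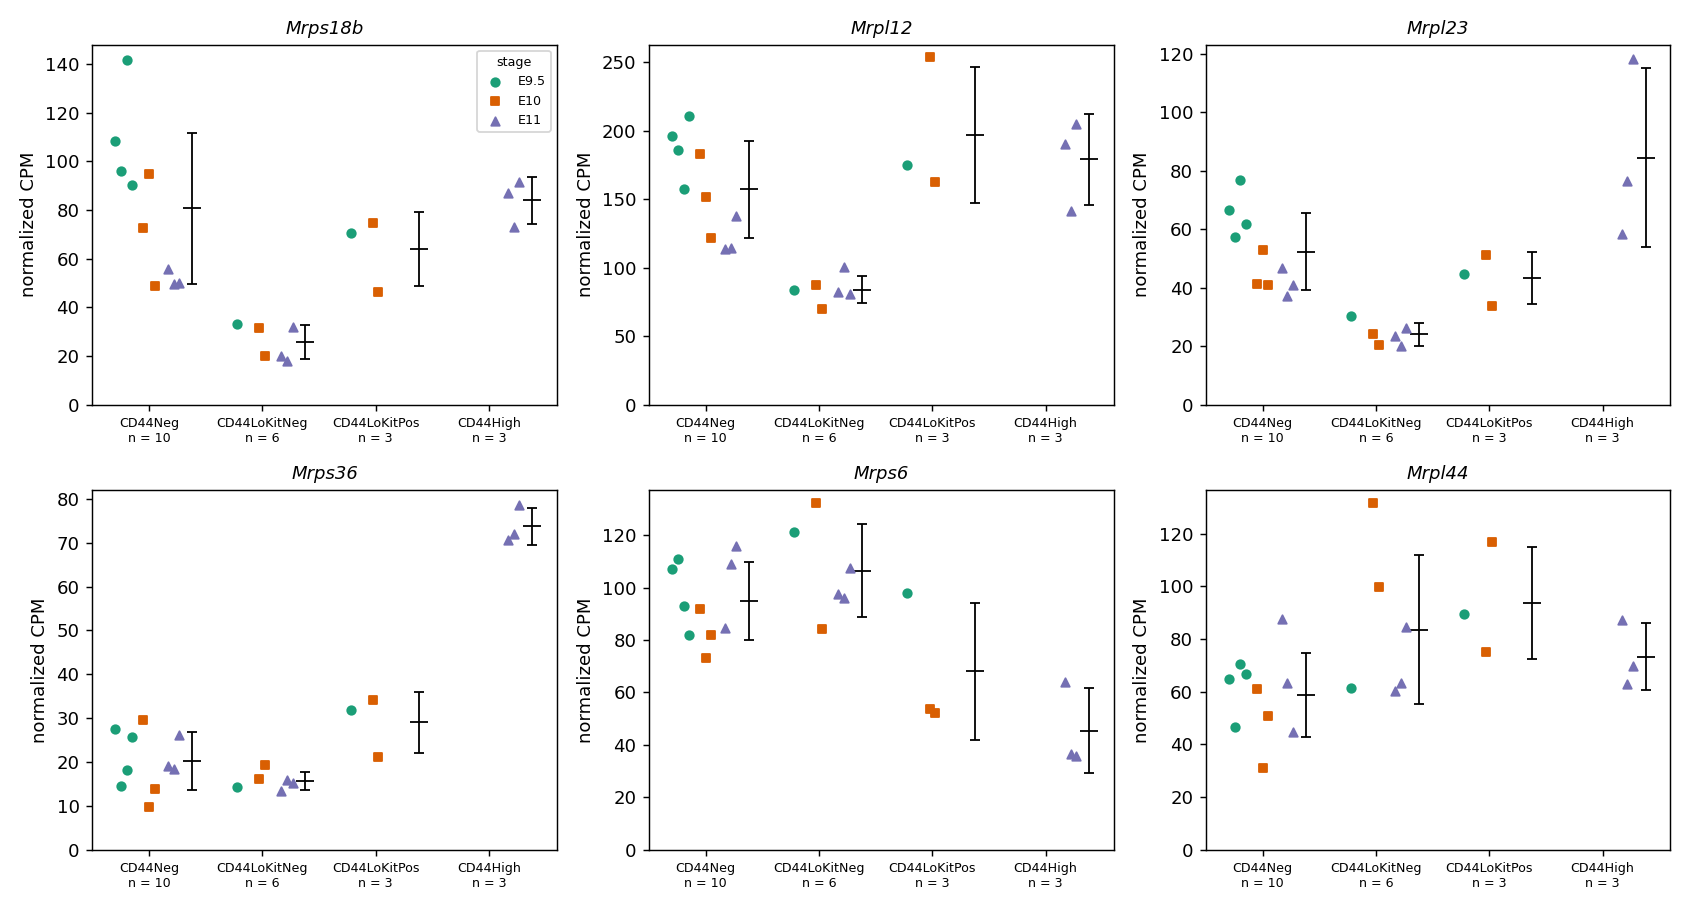
Normalized CPM of 6 members in each library, by population and stage, with the mean and SD of each population as black bars. Mrps18b, Mrpl12 and Mrpl23 are lowest in CD44LoKitNeg without overlap with CD44Neg, Mrps36 is highest in CD44High (70.5 to 78.6 CPM), Mrps6 has its lowest mean there (35.8 to 64.1 CPM, overlapping with CD44LoKitPos), and Mrpl44 overlaps between all populations.

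Other gene groups moved along with this comparison. Of the 12 proliferation genes, 2 were lower in CD44LoKitNeg and all 12 log2 fold changes were below 0 (median -0.88), the called genes being Mcm5 (-1.29) and Mcm2 (-0.98), both subunits of the replicative helicase. Their sum was 1955 to 4003 CPM in CD44Neg, 636, 1010.5 and 683 CPM in the E11 libraries of CD44LoKitNeg, 1704 and 2530 CPM in those of E10 and 4177 CPM in that of E9.5. At E9.5 the proliferation sum was thus above all of CD44Neg while the sum of the 77 genes, at 5925 CPM, was below the 4 CD44Neg libraries of that stage. Of the 75 tested genes for proteins of the cytosolic ribosome, 37 were lower and none higher (median -0.53), led by Rps2 (-1.19), Rplp0 (-0.92) and Rpl7a (-0.82). Of the endothelial markers, 3 of 8 were higher, Tek (1.41), Cdh5 (1.48) and Ramp2 (1.40), and of the 5 tested blood markers 2 were higher, Laptm5 (2.27) and Spi1 (4.56). The neural marker Nes was lower (-2.02), and none of the 3 macrophage, 3 mesenchyme and 1 erythroid markers tested passed. The part of these groups in the fall of the 77 genes was not tested.

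The other genes of mitochondrial translation were counted list by list, against the 5.23% of all genes that were lower and 4.94% that were higher in this comparison. Among 6 mitoribosome proteins listed under other symbols, Aurkaip1 (-0.98) and Dap3 (-0.91) were lower, while Ict1 had -0.72, Gadd45gip1 -0.79, Ptcd3 -0.12 and Chchd1 0.25 without passing. Of 18 translation factors, Mrrf, which recycles the ribosome after termination, was lower (-1.68) and Guf1, an elongation factor, was higher (1.27), with a median of -0.31. Of 26 assembly factors, C1qbp was lower (-1.24) with a median of -0.57. None of the 17 mitochondrial aminoacyl-tRNA synthetases and none of the 7 genes of transcription and replication of the mitochondrial genome passed (medians -0.16 and -0.35). The RNAs coded by the mitochondrial genome itself were not analysed here.

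**Figure D4:**
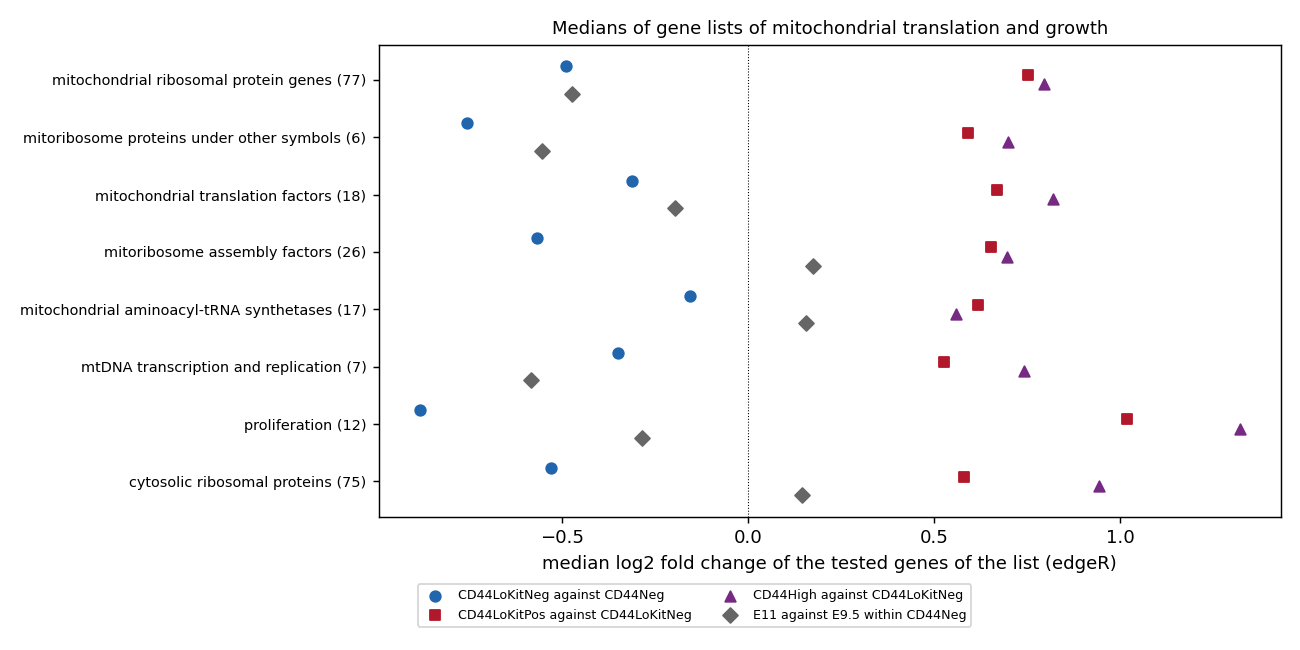
Median log2 fold change of the tested genes in each list, with the number tested in CD44LoKitNeg against CD44Neg in brackets, for 4 comparisons. All lists lie below 0 in CD44LoKitNeg against CD44Neg and above 0 for CD44LoKitPos and CD44High against CD44LoKitNeg, and these 3 comparisons share the CD44LoKitNeg libraries. For E11 against E9.5 within CD44Neg, the 77 genes lie at -0.47 and the cytosolic ribosomal proteins at 0.14.

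CD44LoKitPos cells, which carry blood and endothelial markers, were next set against CD44LoKitNeg. Of the 77 genes, 76 had a log2 fold change above 0 (median 0.75 against -0.02 over all tested genes), where 50.7% of genes were below 0. Of the members 3 passed as higher and none as lower, where 2.55% of 12949 genes were higher and 1.71% lower, and at an unadjusted p under 0.05 54 were higher and 1 was lower, where 27.2% of genes passed. Without a test, 36 members lay higher in all 3 CD44LoKitPos libraries than in all 6 CD44LoKitNeg libraries and none lay lower, against 9.55% and 7.35% of genes. CD44LoKitNeg libraries are part of both this comparison and the last, so the fall and the rise of a gene are not independent of each other.

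Mrpl12 had 253.5, 162 and 175 CPM in the 3 CD44LoKitPos libraries, all above the 69.6 to 100 CPM of CD44LoKitNeg, with a log2 fold change of 1.23 ± 0.22 (edgeR adjusted p = 0.00154). Mrps24, a small subunit protein, had 130.5, 92.5 and 112 CPM against 45.3 to 71.6 CPM, a log2 fold change of 0.96 ± 0.21 (edgeR adjusted p = 0.00476). Mrpl16, a large subunit protein near the sites where transfer RNA binds, had 105, 53.2 and 83.8 CPM against 18.1 to 52.7 CPM, a log2 fold change of 1.41 ± 0.34 (edgeR adjusted p = 0.00931). All 3 genes lay apart from CD44LoKitNeg without overlap, Mrpl16 by less than 1 CPM. Mrpl42 (1.32 ± 0.33) and Mrps18b (1.32 ± 0.32) missed the threshold (edgeR adjusted p = 0.0111 and 0.0103).

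Mrps6 was the 1 member with a lower value, at 53.8, 52.1 and 98.1 CPM and a log2 fold change of -0.65 ± 0.26 (edgeR adjusted p = 0.101), and Mrpl52 was nearest to 0 at 0.05 ± 0.27. The size factors of DESeq2 moved the median of all genes in this comparison to -0.16 and the split of all calls from 330 higher and 222 lower to 218 and 273. The family's median was then 0.62, and 1 member was higher, where 1.68% of genes were. At an adjusted p under 0.05, 27 members were higher, where 7.12% of genes were. With stage as a term 2 members were higher, where 1.76% of genes were, namely Mrpl12 and Mrpl42 (1.12, edgeR adjusted p = 0.00484), while Mrps24 (0.89, edgeR adjusted p = 0.011) and Mrpl16 (1.29, edgeR adjusted p = 0.0243) did not pass. Within E10, with 2 libraries a side, none passed (median 0.58), 16 had an unadjusted p under 0.05 where 19.5% of genes did, and 62 lay higher and 1 lower without overlap, against 27.4% and 23.5% of genes. Single libraries decided the count of 3, which was 0 without CD44LoKitPos 17, 1 without CD44LoKitPos 18 or 19 or CD44LoKitNeg 11 or 12, 5 without CD44Neg 6 or 10 and 8 without CD44LoKitNeg 14. Of 22 fits that each left out 1 library, Mrpl12 passed in 21, Mrps24 in 16 and Mrpl16 in 4.

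Of the other lists, 18 of 75 cytosolic ribosomal protein genes were higher (median 0.58, led by Rplp0, Rps2 and Rpl3), Aurkaip1 (1.05), Mrrf (1.19), Tufm (1.18), the mitochondrial elongation factor that delivers transfer RNA, and C1qbp (1.64) were higher, and no proliferation gene passed (median 1.02, all 12 above 0). Of the endothelial markers 5 of 8 were lower and of the blood markers 3 of 8 higher, and of the macrophage markers Csf1r was higher, at 1.51 to 9.73 CPM against at most 0.168 CPM. No member passed between CD44LoKitPos and CD44Neg, where 2.08% of all genes were higher and 1.41% lower, and 7 had an unadjusted p under 0.05, all higher, where 20.3% of genes did. Without overlap, 1 member lay higher and none lower, against 5.29% and 4.37% of genes. The log2 fold change was above 0 for 56 members, where 50.5% of genes were below 0, and the median over the family was 0.20 (0.34 within E10), with Mrpl16 (0.84 ± 0.31, edgeR adjusted p = 0.11) and Mrpl1 (0.72 ± 0.38) highest and Mrps6 (-0.48 ± 0.24) and Mrpl4 (-0.42 ± 0.29) lowest. The DESeq2 Wald test called none either, and within E10 27 members lay higher and 3 lower without overlap, against 19.7% and 17.6% of genes. A missed threshold with 3 libraries does not show that the levels are the same.

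**Figure D5:**
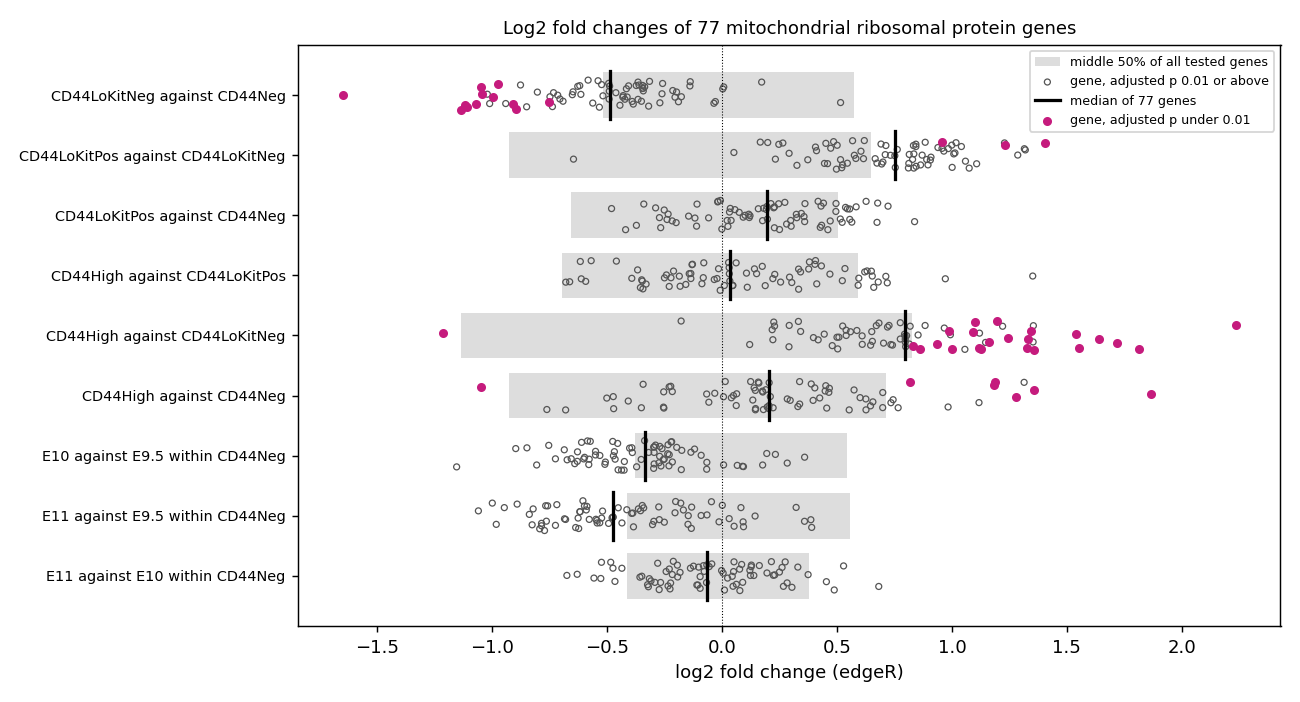
Log2 fold change of each of the 77 genes in 9 comparisons, with the family's median as a black line and the middle 50% of all tested genes as a grey band. Pink points passed an adjusted p under 0.01 by edgeR, namely 12 genes between CD44LoKitNeg and CD44Neg, 3 between CD44LoKitPos and CD44LoKitNeg, 23 between CD44High and CD44LoKitNeg and 7 between CD44High and CD44Neg.

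CD44High held the largest number of called members when set against CD44LoKitNeg. Here 22 of the 77 genes were higher and 1, Mrps6, was lower, where 7.79% and 8.17% of 12949 genes were. The log2 fold change was above 0 for 75 genes and its median was 0.80, against 0 over all tested genes, of which 50% were below 0. At an unadjusted p under 0.05, 54 members were higher and 1 lower, where 37.5% of genes passed, and 38 lay higher and 1 lower without overlap, against 13.5% and 11.7% of genes. The higher genes were 14 of 50 in the large subunit, 7 of 26 in the small subunit, and Mrps36. The proliferation sum was 4185 to 4515 CPM in CD44High, and all 8 macrophage markers were higher. Their part in this result was not tested.

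Mrps36, the dehydrogenase subunit, had 70.5, 72.1 and 78.6 CPM in CD44High, against 13.4 to 19.3 CPM with a median of 15.6 CPM in CD44LoKitNeg, 9.84 to 29.5 CPM with a median of 18.8 CPM in CD44Neg and 34.3, 21.1 and 31.8 CPM in CD44LoKitPos. No library of another population reached the CD44High values. The log2 fold change was 2.24 ± 0.33 against CD44LoKitNeg (edgeR adjusted p = 2.16e-05) and 1.87 ± 0.29 against CD44Neg (edgeR adjusted p = 4.03e-05), and 1.35 ± 0.40 against CD44LoKitPos, which did not pass (edgeR adjusted p = 0.0457). Its 3 named pseudogenes could share its reads.

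Mrpl23 had 58.4, 76.6 and 118 CPM in CD44High, all above the 20.04 to 30.4 CPM of CD44LoKitNeg, with a log2 fold change of 1.82 ± 0.28 (edgeR adjusted p = 3.08e-05). Mrpl57, a small protein specific to mitochondria, had 196, 133 and 143 CPM against 35.7 to 64.6 CPM (1.64 ± 0.25). Mrpl36 had 267, 203 and 254 CPM against 62.9 to 125 CPM (1.54 ± 0.27) and Mrps17 245, 210 and 177 CPM against 75.1 to 118 CPM (1.09 ± 0.20), both proteins with a bacterial counterpart. Mrps18b, lowest in CD44LoKitNeg, had 87.1, 73.1 and 91.6 CPM in CD44High (1.72 ± 0.32, edgeR adjusted p = 0.000314). In these 5 genes no CD44High library overlapped with CD44LoKitNeg.

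Mrps6 went the other way, with 64.1, 36.4 and 35.8 CPM in CD44High against 84.4 to 132 CPM, and a log2 fold change of -1.22 ± 0.27 (edgeR adjusted p = 0.0014). Slc5a3, whose exon it shares, had 11.1 to 21.01 CPM in CD44High and 54.2 to 188 CPM in CD44LoKitNeg (-2.35, edgeR adjusted p = 0.00477), and whether reads were shared between them was not tested. Mrpl44 was the other gene below 0, at -0.18 ± 0.30 (edgeR adjusted p = 0.714).

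Within E11, where both populations have 3 libraries, 17 members were higher and none lower (median 0.85), where 7.11% of genes were higher and Mrps6 did not pass (-1.24, edgeR adjusted p = 0.0142), and 60 members lay higher and 1 lower without overlap, against 22.9% and 19.5% of genes. Stage as a term in the fit gave 36 higher and 1 lower, where 10.5% and 9.04% of genes were. The count of 23 was 8 without CD44High 20, 13 without CD44High 21, 9 without CD44High 22 and 15 without CD44LoKitNeg 12. Here and in the other comparisons, the share of all genes called is not given for fits that left out a library. Such counts alone thus do not set the members apart from other genes. Without CD44High 20 the family's median was 0.61 and that of all genes -0.16. Mrps36, Mrpl23, Mrpl57, Mrpl36 and Mrps18b passed whichever of the 22 libraries was left out, Mrps17 in all fits but that without CD44High 20, and Mrps6 in all but those without CD44High 21 or 22.

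CD44High was then set against CD44Neg. Of the 77 genes, 6 were higher and Mrps6 was lower, where 7.14% and 7.25% of genes were, so the share called in this fit was near that of all genes. At an unadjusted p under 0.05, 23 were higher and 2 lower, where 33.2% of genes passed, and 11 lay higher and 1 lower without overlap, against 9.55% and 9.14% of genes. The median log2 fold change was 0.20, with 18 of 77 below 0 where 50.6% of genes were. All CD44High libraries are from E11, and the median was 0.39 with stage as a term and 0.34 within E11. Besides Mrps36, the higher genes were Mrpl57 (1.28 ± 0.23, edgeR adjusted p = 0.000167), Mrpl36 (1.19 ± 0.24, edgeR adjusted p = 0.000758), Mrps17 (0.82 ± 0.19, edgeR adjusted p = 0.00198), Mrps18c (1.36 ± 0.36, edgeR adjusted p = 0.00715) and Mrpl18 (1.18 ± 0.32, edgeR adjusted p = 0.00825), the last named after its value was seen. Mrps18c had 447 CPM in CD44High 20 against 178 and 152 CPM in the other 2 and 56.2 to 191 CPM in CD44Neg, and without CD44High 20 its log2 fold change was 0.60. It missed the threshold in 9 of the 22 fits that left out 1 library, those without CD44High 20 or 21 or without CD44Neg 1, 2, 3, 5, 8, 9 or 10.

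Mrps6 was lower by 1.05 on the log2 scale (SE 0.25, edgeR adjusted p = 0.00317), and Mrps27 had -0.76 ± 0.34 (edgeR adjusted p = 0.109). Mrps6 did not pass without CD44High 21 or 22 or within E11, Mrps17 did not pass without CD44High 20 or 21 or within E11 (0.79, edgeR adjusted p = 0.0572), and without CD44High 20 only Mrps36 and Mrps6 passed. The count of 7 was 2 without CD44High 20 and 3 without CD44High 21. Within E11, 5 members were higher, where 3.05% of genes were. Stage as a term gave 16 higher and 1 lower, where 7.18% and 7.46% of genes were. Within E11, 35 members lay higher and 1 lower than CD44Neg without overlap, against 18.3% and 18.9% of genes. Between CD44High and CD44LoKitPos no member passed, where 0.78% of genes were higher and 2.23% lower, and 6 had an unadjusted p under 0.05, all higher, where 17.8% of genes did. Without overlap, 11 members lay higher and 4 lower, against 11.8% and 12.1% of genes. The DESeq2 Wald test called 1, Mrps36, as did edgeR at an adjusted p under 0.05, where 1.68% and 2.04% of genes were higher. The family's median was 0.03, with 34 of 77 below 0 where 51.1% of genes were, and with Mrps36 (1.35) and Mrpl23 (0.97) highest and Mrpl16 (-0.68) and Mrpl45 (-0.66) lowest. The median turned below 0 without CD44LoKitPos 18 (-0.022), CD44High 20 (-0.092) or CD44High 22 (-0.017). With stage as a term it was 0.28, and 1 member was higher, where 0.494% of genes were. That member, named after its value was seen, was Mrpl18, at 1.71 ± 0.35 (edgeR adjusted p = 0.00363) against 0.71 ± 0.42 without the term (edgeR adjusted p = 0.41). No stage holds both of these populations, so the stage term rested on CD44Neg and CD44LoKitNeg libraries and on the E9.5 and E10 libraries of CD44LoKitPos.

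The lists of growth and mitochondrial translation were also counted in CD44High. Against CD44LoKitNeg, 64 of 75 cytosolic ribosomal protein genes were higher (median 0.94) and 4 of 12 proliferation genes were higher (median 1.32, with Mcm5, Ccna2 and Pcna among them). Also higher were Aurkaip1 (1.33), Dap3 (1.05), Mrrf (1.53), C1qbp (1.95), the assembly factor Rbfa (2.27) and the synthetase Rars2 (1.23), while Trub2, a pseudouridine synthase, was lower (-1.23). Against CD44Neg, 20 of 75 cytosolic ribosomal protein genes, no proliferation gene and, of the mitochondrial lists, Ssbp1 (1.15), which binds single-stranded mitochondrial DNA, were higher, and Trub2 was lower (-1.31). The erythroid gene Klf1 was higher in CD44High against both, no mesenchyme marker passed in any of these, and of the neural markers Nes was lower in CD44High than in CD44Neg (-3.67).

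Within CD44Neg, which has 4 libraries at E9.5 and 3 at each later stage, most members had lower levels after E9.5, though none passed the test. At E11 against E9.5 the log2 fold change was below 0 for 66 of the 77 genes (median -0.47 against 0.03 over all tested genes), where 48.1% of genes were below 0. No member passed an adjusted p under 0.01, where 0.293% of 11250 genes were lower and 0.391% higher, and 31 members had an unadjusted p under 0.05, all lower, against 17.1% of genes in either direction. The share of Rn45s moved with these stages too, from 1.92% to 13.8% of counts in the E9.5 libraries to 15.2% to 17.9% in those of E11, without overlap. With Rn45s left out of the fit the median of the 77 genes was -0.47 and none passed. The DESeq2 Wald test called 5 lower, where 1.88% of genes were, and 4 were lower at an edgeR adjusted p under 0.05, where 1.49% of genes were. At E10 against E9.5, 68 were below 0 (median -0.34) where 47.8% of genes were, none passed where 0.0178% of genes were higher and 0.0% lower, and 19 had an unadjusted p under 0.05 where 15.2% of genes did. The Wald test called 2 lower, where 0.942% of genes were. Between E11 and E10 the median was -0.07 with 34 genes above and 43 below 0, where 51.5% of genes were below 0, and it turned to 0.0515 without CD44Neg 8. No gene of the table passed (0.0%), 4 members had an unadjusted p under 0.05 where 8.68% of genes did, and the Wald test called no member.

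Mrps18b had the lowest value in E11 against E9.5. Its 4 libraries at E9.5 had 108, 96.1, 142 and 90.4 CPM, those at E10 72.7, 95 and 48.6 CPM, and those at E11 55.6, 49.4 and 49.99 CPM. The E9.5 and E11 libraries did not overlap, and the log2 fold change was -1.06 ± 0.27 (edgeR adjusted p = 0.0437). The other 3 with an adjusted p under 0.05 were Mrpl42 (-0.9998 ± 0.23), Mrpl18 (-0.76 ± 0.18) and Mrpl51 (-0.89 ± 0.21), all 3 named here after their values were seen. Mrpl51 also had the lowest value in E11 against E10 (-0.68 ± 0.22) and Mrpl43 the highest (0.68 ± 0.29).

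Mrpl9 was highest in E11 against E9.5, at 0.39 ± 0.28, with 60.3, 70.1, 36.9 and 62.7 CPM at E9.5 and 74.9, 67.7 and 80.2 CPM at E11, which overlapped. For E10 against E9.5, Mrpl49 was lowest (-1.16 ± 0.25, edgeR adjusted p = 0.0468) and Mrps2 highest (0.36 ± 0.27). For E11 against E9.5 the cytosolic ribosomal proteins had a median of 0.14, with 48 of 75 above 0 and none called, and the endothelial markers were above 0 for all 8 genes, with Pecam1, Esam and Tie1 higher. The proliferation genes were below 0 for 11 of 12 (median -0.29), none called. The medians of the lists, 0.17 for assembly factors, 0.16 for synthetases, -0.20 for translation factors and -0.58 for mitochondrial DNA upkeep, came with no call.

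An interaction term, fitted on the 11 libraries of E10 and E11, tested if the difference between CD44LoKitNeg and CD44Neg depends on stage. No member passed, where 0.00806% of 12403 genes were lower and 0.0% higher, and 4 members had an unadjusted p under 0.05, all lower, where 10.7% of genes did. The DESeq2 Wald test called none. The median was -0.15, with 47 of 77 below 0 where 51.1% of genes were. Mrpl19 had the lowest value (-1.96 ± 0.62, edgeR adjusted p = 0.272), with 18.4, 15.1 and 6.66 CPM in CD44LoKitNeg at E11 against 69.3 and 42.4 CPM at E10, and Mrpl53 the highest (0.91 ± 0.63). A dependence on stage was thus not detected for any member, which does not show that there is none.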

How the data were processed

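The deposited table held raw counts per gene symbol for 22 SMART-Seq2 libraries of 25 cells, which the authors made with FASTX clipping, RNA STAR and htseq-count on a Galaxy server. The labels name the mm10 build, FastQC and HTSeq. The annotation, strand setting and handling of shared reads are not given in the sources used here. Library totals were 3912350 to 8657546 counts.

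Counts were scaled by TMM, genes with low counts were removed (filterByExpr, minimum count 10, total 15) and groups were compared by edgeR's quasi-likelihood test (edgeR 4.0.16, R 4.3.3) with Benjamini-Hochberg adjustment over all genes tested and a threshold of 0.01. CD44LoKitNeg against CD44Neg was fitted on their 16 libraries, other populations on all 22, stages on the 10 CD44Neg libraries and the interaction on 11. Groups that do not overlap were counted on normalized CPM, and these counts have no test. Fitting was tested on simulated data. DESeq2 1.42.0, other filters and thresholds, stage terms, single stages and leaving out each library were the alternatives.

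Named were up to 12 called members of the first comparison and 6 (stages 3) of the others, the 1 to 3 farthest in each direction and members chosen by role, with up to 3 called genes from each list of mitochondrial translation, proliferation, cytosolic ribosome and cell type markers. Members and lists were chosen with earlier results of these data known. Transcript lengths, exon overlaps and distances between gene starts are from GENCODE (GRCm38), positions and promoters from RefSeq (GRCm38.p6). Replicate libraries of 1 group and stage differed by more than counting noise (chi-square per degree of freedom 17 to 85.2 over 20 pairs).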

Additional observations from a re-analysis of the deposited data

Results flagged for a closer look

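In 2 of 78 groups tested, a single library lay far from the others of its group by Dixon's criterion, which chance alone meets in about 1 of 20 groups. Mrpl17, a large subunit gene, had 421 CPM in CD44Neg replicate 6 at E9.5, and 185.7 to 310.2 CPM in the other 9 CD44Neg libraries. Mrps12, the gene of the decoding centre, had 27.7 CPM in CD44LoKitNeg replicate 11 at E11, and 46.2 to 56.9 CPM in the other 5 CD44LoKitNeg libraries.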

How the results depend on the processing

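No paired analysis was made, because the replicate numbers run on through all libraries and the labels give no pairing between populations. Of the results that answer a comparison, 392 values under alternatives stayed the same, 54 moved and 4 reversed; the causes were not tested.

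The 12 members lower in CD44LoKitNeg than in CD44Neg became 27 at an adjusted p under 0.05, 19 by the DESeq2 Wald test, 0 at E11 alone, 0 at E10 alone and 6 to 13 on leaving out a library. The median over all 77 genes ran from -0.52 to -0.41 on leaving out a library and was -0.27 at E10 alone. The 3 members higher in CD44LoKitPos than in CD44LoKitNeg became 27 at an adjusted p under 0.05, 1 with DESeq2 size factors, 1 without a filter, 7 by the Wald test, 0 at E10 alone and 0 to 8 on leaving out a library, with medians over the 77 of 0.65 to 0.83. For the fits without a filter and by the Wald test here, the share of all genes called is not given. Where that share is missing, a count alone does not set the members apart from other genes. Between CD44LoKitPos and CD44Neg the median ran from 0.14 to 0.29 on leaving out a library and was 0.34 at E10 alone. Between CD44High and CD44LoKitPos the count became 1 at an adjusted p under 0.05, 1 by the Wald test and 1 with stage as a term. Its median of 0.03 was 0.28 with stage as a term and reversed on leaving out CD44LoKitPos 18 (-0.022), CD44High 20 (-0.092) or CD44High 22 (-0.017), with a range of -0.092 to 0.0896. The 23 calls between CD44High and CD44LoKitNeg became 43 at an adjusted p under 0.05, 37 with stage as a term and 8 to 29 on leaving out a library, with medians over the 77 of 0.61 to 0.80. The 7 calls between CD44High and CD44Neg became 16 and 17 at these settings and 2 to 9 on leaving out a library, with medians over the 77 of 0.0985 to 0.28. The median was 0.39 with stage as a term and 0.34 at E11 alone.

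For E11 against E9.5 the count of 0 became 4 at an adjusted p under 0.05, 1 without a filter and 5 by the Wald test, with medians of -0.56 to -0.42. For E10 against E9.5 it became 1, 1 and 2, with medians of -0.47 to -0.29. The median of E11 against E10 ran from -0.11 to 0.0515 and reversed without CD44Neg 8 (0.0515). That of the interaction ran from -0.28 to -0.0078.

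Among single genes, Mrps18c between CD44LoKitNeg and CD44Neg reversed at E11 alone (-0.19) and on leaving out a library (-0.12 to 0.19), and Mrpl52 between CD44LoKitPos and CD44LoKitNeg reversed with DESeq2 size factors (-0.091), by the Wald test (-0.091) and on leaving out a library (-0.12 to 0.15). Of the other values of single genes, 1098 stayed the same, 160 were weaker and 9 stronger. Libraries of 25 cells, and 3 libraries in 2 of the populations, limit the precision.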

Other observations

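Among the 6 mitoribosome proteins listed under other symbols, Gadd45gip1, a large subunit protein, had a log2 fold change of 1.39 ± 0.35 between CD44LoKitPos and CD44LoKitNeg (edgeR adjusted p = 0.0122) and -0.79 ± 0.29 between CD44LoKitNeg and CD44Neg (edgeR adjusted p = 0.0591). Ict1, a peptidyl-tRNA hydrolase built into the large subunit, had values of -0.72 ± 0.21 in CD44LoKitNeg and -0.77 ± 0.29 in CD44High against CD44Neg (edgeR adjusted p = 0.0177 and 0.0547), and -0.04 ± 0.29 between CD44High and CD44LoKitNeg. None of these values passed the threshold.

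Within CD44LoKitNeg, the 3 libraries of E11 were set against the 3 of E9.5 and E10 without a test. Of the 77 genes, 56 had a lower mean at E11, with a median difference of -0.24 on the log2 scale against -0.02 over all genes, and 16 lay lower and 2 higher without overlap, against 11.9% and 10.4% of genes. The E11 libraries also had the lowest proliferation sums of the 22, between 636 and 1010.5 CPM, and the highest Rn45s shares of the population, 17.4% to 19.2%, and the part of either in this difference was not tested.

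In CD44High replicate 20, Mrps18c (447 CPM), Mrpl18 (517 CPM) and Mrpl1 (251 CPM) stood above replicates 21 and 22, which had 178 and 152 CPM for Mrps18c, 336 and 225 CPM for Mrpl18 and 81.6 and 85.7 CPM for Mrpl1. These 3 genes were chosen after their values were seen.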
